A study of Homo sapiens with 32 samples.

Results

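The replication-dependent histone genes encode the bulk core histones and the main linker histones that package new DNA in S phase. They were chosen by name alone: every gene whose symbol was H1-1 to H1-6 or H2AC, H2BC, H3C or H4C followed by a number, with genes annotated as pseudogenes left out. The rule found 64 of the 61541 genes in the count table: 6 for linker histone H1, 14 for H2A, 17 for H2B, 13 for H3 and 14 for H4. They lay in 4 stretches of the GRCh38 genome, which are called clusters below. The largest held 34 genes at chr6:25726063-26285534, a small one held 5 genes at chr6:27125897-27147562, another held 16 genes at chr6:27807479-27893891, and the remaining 9 genes lay at chr1:149782689-149887965.

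In an octamer of histones H2A, H2B, H3 and H4, DNA is wound into a nucleosome, and H1 binds where the DNA enters and leaves it. The mRNAs of the replication-dependent genes are transcribed in S phase under NPAT and usually carry no poly(A) tail: they end just after a stem-loop that is bound by SLBP and are degraded quickly when DNA synthesis stops. Some of these genes can also give longer, polyadenylated transcripts, as in cells that have stopped dividing or differentiated. Libraries selected on poly(A) therefore record only part of the RNA of these genes, so the levels below are levels of what was captured, not of all histone mRNA.

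RNA was sequenced from 2 human germ cell cancer lines. NTera2 derives from an embryonal carcinoma and was grown in DMEM; TCam-2 derives from a seminoma and was grown in RPMI 1640. Each line received vehicle (D-PBS), RANKL (the ligand of the receptor RANK), OPG (a soluble decoy receptor that binds RANKL) or denosumab (an antibody against RANKL) for 48 hours, with 4 libraries in each of the 8 groups. RANKL and OPG were given at 1 µg/ml; the protocol text names RANKL again in the place of the remaining agent, so the dose of denosumab is not given in the sources used here. Replicates 1 to 4 came from separate experiments, each at its own passage (27, 29, 30 and 31 for NTera2; 118, 120, 121 and 122 for TCam-2). Line, medium and passage changed together and cannot be told apart in any comparison between the lines.

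The libraries held 10585247 to 30499538 counts assigned to genes. Histone genes took 1000 to 3043 of them per library, or 0.00819% to 0.0161%, and 1 read was worth 0.0306 to 0.10 CPM (counts scaled to a common library total, with TMM factors over all 32 libraries). The lines matched their labels: all 5 markers of embryonal carcinoma (SOX2 among them) were lower in TCam-2 and all 6 of seminoma (SOX17 among them) were higher, while 3 of 5 immune markers (PTPRC, CD3E and CD68) had no counts in the vehicle libraries and the list summed to at most 2.7 CPM there. The endothelial markers PECAM1, CDH5 and VWF summed to 8.5 to 14.2 CPM in NTera2 and 15.7 to 16.9 CPM in TCam-2 vehicle libraries. Of 6 fibroblast markers DCN and LUM were near 0 in both lines. COL1A2 averaged 0.659 CPM in NTera2 against 282 in TCam-2, whereas THY1 (303 against 21.4), PDGFRB (37.8 against 3.69) and COL1A1 (30.0 against 8.61) ran the other way, so that the list summed to 356.4 to 399.4 and 306.4 to 326.3 CPM. The part of these genes in the histone differences was not tested. RNA integrity numbers were 8.3 to 9.6 except in TCam-2 RANKL replicates 2 (6.1) and 4 (3.7), and 1 vehicle library of NTera2 had none listed. Results that rest on these 2 libraries are given with and without them.

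The sequence that sets these mRNAs apart is the 16-base stem-loop at their end. It was read from GENCODE v29 transcripts within 200 bases after the stop codon and was found in 26 of the 62 histone genes matched there, against 35 of all 19684 coding genes (0.178%). For most of the others, among them H1-2 and H2BC12, the annotated transcript stops at or near the end of the coding sequence, so none could be read. The 9 below stand for the 6 forms seen and for the genes described later; the stem-loop is in capitals with 5 bases on either side, 5′ to 3′ on the strand of the gene.
H2AC6: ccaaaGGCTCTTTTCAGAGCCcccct
H2BC21: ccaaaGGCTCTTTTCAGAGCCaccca
H2BC4: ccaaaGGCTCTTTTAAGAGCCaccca
H2BC5: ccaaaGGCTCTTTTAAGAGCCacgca
H3C8: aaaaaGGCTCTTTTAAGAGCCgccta
H4C8: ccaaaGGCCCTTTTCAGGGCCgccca
H4C14: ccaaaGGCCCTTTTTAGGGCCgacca
H3C6: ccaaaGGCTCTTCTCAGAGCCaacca
H2AC11: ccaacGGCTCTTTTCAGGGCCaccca

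The form of H2AC6 and H2BC21 was the commonest and stood in 13 of the 26 genes. That of H2BC4, H2BC5 and H3C8 stood in 4, and so did that of H4C8, which was found in H4 genes. The form of H4C14 stood in 3 genes, also of the H4 class. H3C6 and H2AC11 each had a form of their own, seen in 1 gene. The site of H2AC6 lay at chr6:26124664-26124689 on the plus strand, that of H2BC4 at chr6:26123467-26123492 on the minus strand and that of H2BC21 at chr1:149886183-149886208 on the minus strand, all in the 3′ untranslated region just after the stop codon.

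The deposited gene models of several of these genes ran on well past the stem-loop. The annotated interval reached 14400 bases beyond it in H2AC6, 12747 in H2BC5, 8599 in H2BC4, 7522 in H4C8 and 1729 in H2BC21, whereas in most of the short models it ended 5 bases after. These distances are genomic, and the listed lengths of the 5 genes were 1668, 861, 723, 2163 and 2224 bases in the same order. In the long models of H2BC6, H3C6 and H3C10 the interval also ended 5 bases after the stem-loop. The listed lengths of H3C6 and H3C10 (2679 and 1250 bases) nevertheless exceed their intervals (1418 and 486 bases). The models counted for these genes may therefore also hold sequence past the stem-loop. Counts of the models that run on can include reads from transcripts that continue downstream. Among core histone genes the 14 models longer than 600 bases had a median of 1.30 CPM in the vehicle libraries (0.787 CPM per kilobase), and the 44 shorter ones had a median of 0.130 CPM (0.274 per kilobase). How much of each level came from reads downstream of the stem-loop was not tested.

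Most histone genes were captured at very low levels. Of the 64, 7 had no count in any of the 32 libraries (H1-1, H2AC1, H2BC1, H3C4, H3C14, H3C15 and H4C7), and 13 had counts in every library. In NTera2 9 genes stayed without a count, the same 7 with H4C6 and H1-6, a testis-specific linker histone. In TCam-2 7 did. H2AC1 and H2BC1 encode testis-specific forms. The GENCODE transcripts of H3C14, H3C15 and H3C4 share every run of 52 bases, the read length, with another transcript. That of H3C4 ends with the coding sequence. A count of 0 for them may therefore depend on how reads that match several genes were treated, which is not given in the sources used here.

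**Figure D1:**
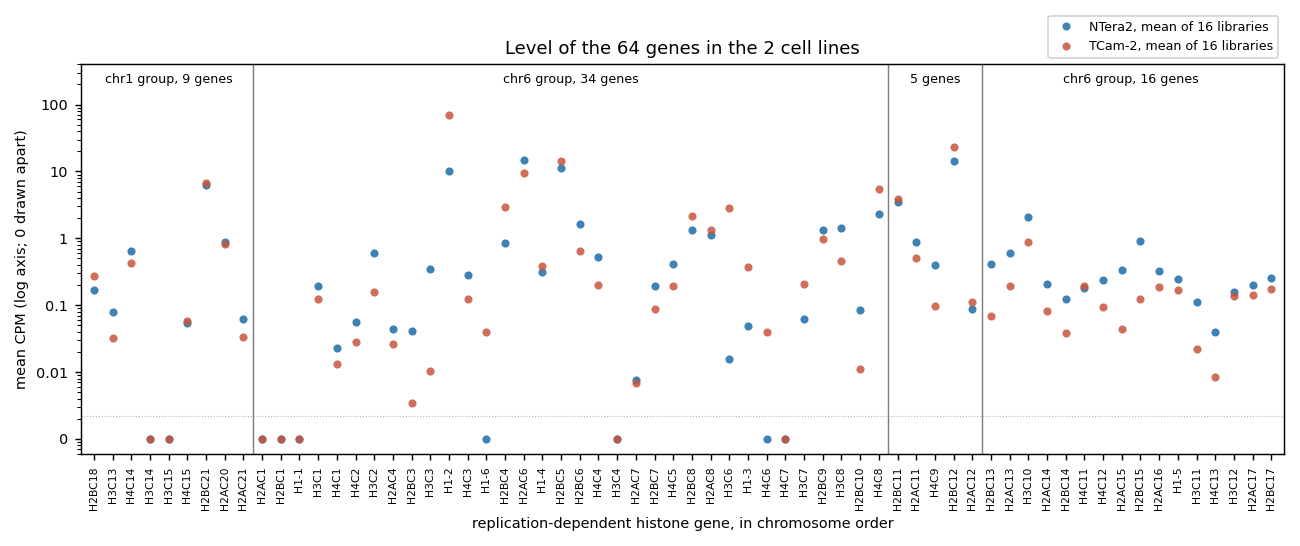
Mean level of each of the 64 replication-dependent histone genes in the 16 libraries of each line, in chromosome order by cluster, in CPM on a log axis with 0 drawn apart. H1-2 stands highest in TCam-2, most genes lie under 1 CPM in both lines, and H3C6 is seen in TCam-2 with almost no counts in NTera2.

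Per kilobase of gene model, H1-2 led with 56.9 CPM over the 8 vehicle libraries. It was followed by H2BC12 with 37.7, H2BC5 with 16.2 and H2AC6 with 7.01 CPM per kilobase. H2BC8 (3.81), H2BC11 (3.31), H2BC9 (3.00), H2BC21 (2.84), H2AC8 (2.81) and H2BC4 (2.56 CPM per kilobase) came next within a narrow span. H2B genes thus made up most of the upper end, and the leading H3 and H4 genes on this scale, H3C8 and H4C8, stood at 2.09 and 1.81 CPM per kilobase, with H3C10 at 1.10. The listed lengths of H3C6 and H3C10 exceed their annotated intervals, so their values per kilobase are less certain.

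How far a level belongs to 1 gene alone differed among them. All 52-base windows of the H1-2 transcript were unique in GENCODE v29, as were 99.7% of those of H2AC6, 95.1% of H2BC5 and 92.2% of H2BC21. In H2BC12, by contrast, 27.3% were unique and in H4C14 2.56%, so counts of these genes could be split with near-identical copies and are uncertain. The GENCODE transcripts of H1-2 and H2BC12 end with the coding sequence (330 windows in H2BC12, against a model of 495 bases). Stretches of their models outside these transcripts were not examined for uniqueness. H2BC5 also overlaps unnamed genes on both strands and H2BC6 an unnamed gene on the other strand. The library kit keeps the strand, but whether the counting used it is not given in the sources used here.

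Between the lines, vehicle libraries differed in H1-2, the most abundant of these genes, which was 7.0-fold higher in TCam-2. H2BC4, H4C8, H2BC12, H2BC5 and H3C6 were also higher in TCam-2, while H2BC15, H3C8, H2BC6, H3C10 and H2AC6 were higher in NTera2. Of the 64 genes 19 had enough counts to be tested with edgeR's quasi-likelihood test, and 11 passed an adjusted p of 0.05, 6 higher and 5 lower in TCam-2. Across all 16816 genes tested 76.2% passed (37.4% higher, 38.8% lower), so the share among histone genes, which moved in both directions, was no larger than the background. The median log2 difference was 0.05 over the tested histone genes and -0.01 over all genes. All adjusted p-values given below come from this test with Benjamini-Hochberg adjustment over all genes tested.

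H1-2 encodes an abundant somatic linker histone. Its level in NTera2 vehicle replicates 1 to 4 was 10.2, 10.9, 11.2 and 9.33 CPM. In TCam-2 vehicle replicates it was 62.7, 63.4, 75.7 and 89.6 CPM. Every TCam-2 library was thus far above every NTera2 library, and the spread within TCam-2 was small beside the gap. The means were 72.8 ± 12.7 and 10.4 ± 0.845 CPM (SD, n = 4 each), a log2 difference of 2.81 (SE 0.127, adjusted p = 4.27e-12, edgeR).

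The remaining H1 genes were captured at levels too low to test. H1-4 stood at a mean of 0.180 CPM in NTera2 and 0.407 in TCam-2 vehicle libraries, and H1-5 at 0.186 and 0.227 CPM. H1-3 had 3 counts in all NTera2 vehicle libraries and 15 in TCam-2. H1-2 alone therefore carried the level of its class.

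Among H2B genes, H2BC12 measured 15.8, 14.6, 11.9 and 17.1 CPM in NTera2 vehicle replicates 1 to 4. In TCam-2 it measured 20.7, 19.6, 25.7 and 23.8 CPM. The groups did not overlap, and the log2 difference was 0.59 (SE 0.135, adjusted p = 8.08e-04, edgeR). H2BC5 measured 11.3, 11, 10.6 and 12.6 CPM in NTera2 against 16.9, 15.5, 15.3 and 18 CPM in TCam-2. It too was higher in every TCam-2 library, by 0.52 on the log2 scale (SE 0.126, adjusted p = 0.00129, edgeR).

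H2BC4 was low and uneven. It measured 0.380, 1.46, 0.395 and 0.880 CPM in NTera2 and 2.89, 1.22, 3.68 and 3.93 CPM in TCam-2. TCam-2 replicate 2 lay below the highest NTera2 library, so the groups overlapped although the log2 difference of 1.90 passed (SE 0.437, adjusted p = 8.67e-04, edgeR). H2BC6 was the reverse: 2.01, 2.16, 1.11 and 2.05 CPM in NTera2 against 0.703, 0.841, 0.626 and 0.218 CPM in TCam-2, a log2 difference of -1.65 (SE 0.405, adjusted p = 0.0015, edgeR).

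H2BC15 showed the most negative difference. It measured 0.977, 1.59, 0.869 and 0.997 CPM in NTera2 and 0.156, 0, 0.391 and 0 CPM in TCam-2. The log2 difference was -2.92 (SE 0.638, adjusted p = 5.60e-04, edgeR), and the few counts in TCam-2 limit how precisely its size is known.

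H2BC21 measured 6.90, 6.54, 5.84 and 6.04 CPM in NTera2 and 6.09, 4.77, 7.20 and 7.12 CPM in TCam-2. The groups overlapped with a log2 difference of -0.01 (SE 0.176, adjusted p = 0.964, edgeR). H2BC11 gave a similar picture, with 3.69, 3.87, 2.13 and 2.93 CPM against 3.98, 3.74, 4.62 and 2.69 CPM and a log2 difference of 0.23 (SE 0.251). H2BC8, at 1.30, 1.97, 1.18 and 0.939 CPM in NTera2 and 3.67, 0.748, 2.35 and 2.76 CPM in TCam-2, did not pass with a log2 difference of 0.83 (SE 0.392, adjusted p = 0.0662, edgeR), though it did without NTera2 replicate 2 (1.05, adjusted p = 0.0437) or without TCam-2 replicate 2 (1.08, adjusted p = 0.00546). H2BC9 stood at 1.41, 2.29, 1.82 and 1.23 CPM against 0.859, 1.31, 0.939 and 1.24 CPM, a log2 difference of -0.63 (SE 0.337). Of the 9 H2B genes tested, then, 3 were higher in TCam-2, 2 were lower and 4 did not pass.

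In the H2A class, H2AC6 was the only one of 4 tested genes to pass. It measured 14.9, 14.6, 13.2 and 14.5 CPM in NTera2 and 7.81, 9.16, 8.76 and 10.6 CPM in TCam-2. Every NTera2 library was above every TCam-2 library, with a log2 difference of -0.66 (SE 0.140, adjusted p = 4.51e-04, edgeR). H2AC8 varied more within a line than between them, at 1.95, 1.02, 2.13 and 0.587 CPM in NTera2 and 1.17, 0.374, 1.72 and 2.47 CPM in TCam-2. Its log2 difference was 0.05 (SE 0.474), that of H2AC20 0.17 (SE 0.358) and that of H2AC11 -0.60 (SE 0.575).

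All 3 tested H3 genes passed, in both directions. H3C6 had enough counts for a test in TCam-2 only and H3C8 in NTera2 only, which favours the direction found for each. H3C6 had no count in any NTera2 vehicle library and 36, 26, 31 and 24 counts in TCam-2, or 2.81, 2.43, 2.43 and 1.74 CPM. Against the floor that 3 counts over the NTera2 group allow (0.047 CPM), it was at least 50.1-fold higher in TCam-2 (adjusted p = 2.49e-07, edgeR). In the treated NTera2 libraries H3C6 had single counts, in RANKL replicate 3, OPG replicates 2 and 3 and denosumab replicate 4, while the treated TCam-2 libraries lay between 2.00 and 4.32 CPM.

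H3C8 and H3C10 were lower in TCam-2. H3C8 measured 1.85, 1.59, 1.5 and 1.47 CPM in NTera2 and 0.469, 0.748, 0.470 and 0.218 CPM in TCam-2, a log2 difference of -1.77 (SE 0.391, adjusted p = 6.14e-04, edgeR). H3C10 measured 2.17, 1.65, 2.84 and 1.58 CPM against 0.625, 0.654, 0.783 and 0.727 CPM, a log2 difference of -1.54 (SE 0.343, adjusted p = 6.44e-04, edgeR). In neither gene did the groups overlap. H3C6 and H3C8 lie in the same large cluster on chromosome 6 and differed between the lines in opposite directions, while H3C10 lies in the cluster at chr6:27807479-27893891.

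Of the H4 genes, H4C8 measured 2.50, 1.46, 2.45 and 2.82 CPM in NTera2 and 5.70, 5.89, 5.09 and 5.45 CPM in TCam-2. The groups did not overlap, with a log2 difference of 1.25 (SE 0.229, adjusted p = 1.03e-04, edgeR). H4C14, the other H4 gene tested, did not pass (-0.21, SE 0.518), and its counts could be shared with near-identical copies.

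**Figure D2:**
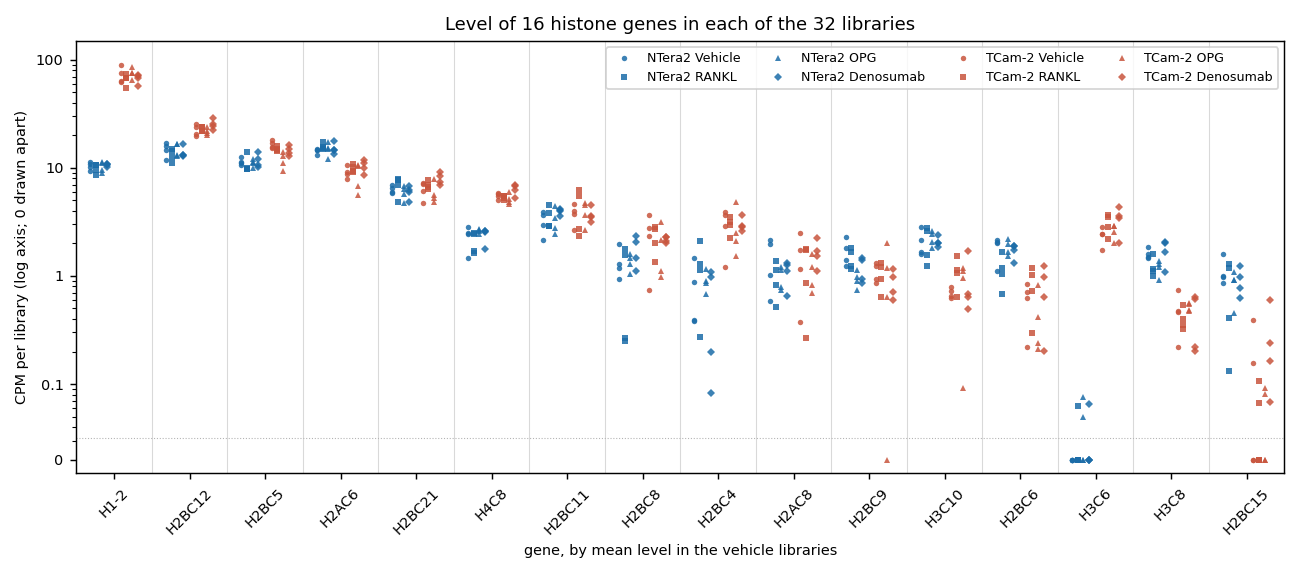
Level of 16 histone genes in each of the 32 libraries, by line and treatment, in CPM on a log axis with 0 drawn apart; each point is 1 library. H1-2, H2BC12 and H4C8 lie higher in TCam-2 and H2AC6 and H3C8 higher in NTera2 in every treatment group, while H2BC21 and H2AC8 are mixed.

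The 45 untested genes had 519 counts in the NTera2 vehicle libraries together and 190 in those of TCam-2, or summed means of 8.11 and 3.91 CPM. By mean level 25 of them were higher in NTera2, 12 in TCam-2 and 8 equal. The same split over all genes that failed the filter was not examined. The highest was H3C2 in NTera2 at 0.665 CPM. H2AC15 had 36 counts in NTera2 and none in TCam-2, H3C3 30 and none, and H2BC13 25 and none. With the filter on low counts removed, 56 histone genes could be tested and 21 passed, 6 higher and 15 lower in TCam-2, against 45.5% of all genes. Most of these 21 were thus higher in NTera2. The split by direction over all genes in that fit was not examined, so whether this is particular to histone genes was not tested.

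The clusters differed in their summed levels between the lines. The large cluster at chr6:25726063-26285534, which holds H1-2, summed to 50.5 ± 1.32 CPM with vehicle in NTera2 and to 116.8 ± 15.4 CPM in TCam-2. The cluster at chr6:27125897-27147562, led by H2BC12, summed to 19.6 ± 2.96 and 27.1 ± 3.52 CPM. The cluster at chr6:27807479-27893891 ran the other way, with 6.83 ± 0.848 CPM in NTera2 (5.59 to 7.49) and 2.37 ± 0.988 CPM in TCam-2 (1.38 to 3.74). The chromosome 1 cluster, led by H2BC21, stood at 8.45 ± 0.399 and 8.53 ± 0.593 CPM, a difference smaller than its spread (all SD, n = 4).

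Calls of single genes stand beside a background of 76.2% of all genes tested (37.4% higher, 38.8% lower in TCam-2). In the large cluster 11 genes were tested, of which 5 were higher and 3 lower in TCam-2 (median log2 difference 0.52). The share called there was near the background, and the other clusters had few tested genes. In the small one 1 of 3 tested genes was higher. Both genes tested in the third chromosome 6 cluster, H3C10 and H2BC15, were lower (median -2.23). H2BC15 had enough counts for a test in NTera2 only, so its call adds no separate support for the cluster difference. None of the 3 tested on chromosome 1 passed (median -0.01). In the treated groups the third chromosome 6 cluster averaged between 6.05 and 6.83 CPM in NTera2, vehicle included, and between 2.37 and 2.87 CPM in TCam-2. Few genes that are not histone members could be tested inside these intervals: 2 of 3 in the large cluster passed and were higher in TCam-2, and both tested on chromosome 1, the pseudogenes H2BC19P and H2BC20P, were lower.

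Summed over all 64 genes, vehicle replicates 1 to 4 gave 87.1, 88.1, 79.0 and 87.3 CPM in NTera2. In TCam-2 they gave 143.0, 139.0, 161.1 and 176.0 CPM, so every TCam-2 library was higher. Most of the gap was H1-2: without it the sums were 75 ± 4.83 CPM in NTera2 against 81.9 ± 4.98 in TCam-2 (SD, n = 4), and the ranges overlapped. All genes but H1-2 held 87.8% of the summed level in NTera2 vehicle libraries and 53.2% in TCam-2. By class, H2A summed to 19.7 ± 1.07 and 13.0 ± 1.80 CPM, H2B to 44.0 ± 4.6 and 56.7 ± 5.65, H3 to 5.60 ± 0.517 and 4.12 ± 0.865, and H4 to 5.27 ± 0.967 and 7.16 ± 0.824 CPM. The 26 genes with a stem-loop read above summed to 50.3 ± 1.69 CPM in NTera2 against 51.8 ± 3.90 in TCam-2. In bulk libraries fewer cells in S phase and less RNA per cell cannot be told apart, and here neither can a change in the share of the RNA that carries a poly(A) tail.

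**Figure D3:**
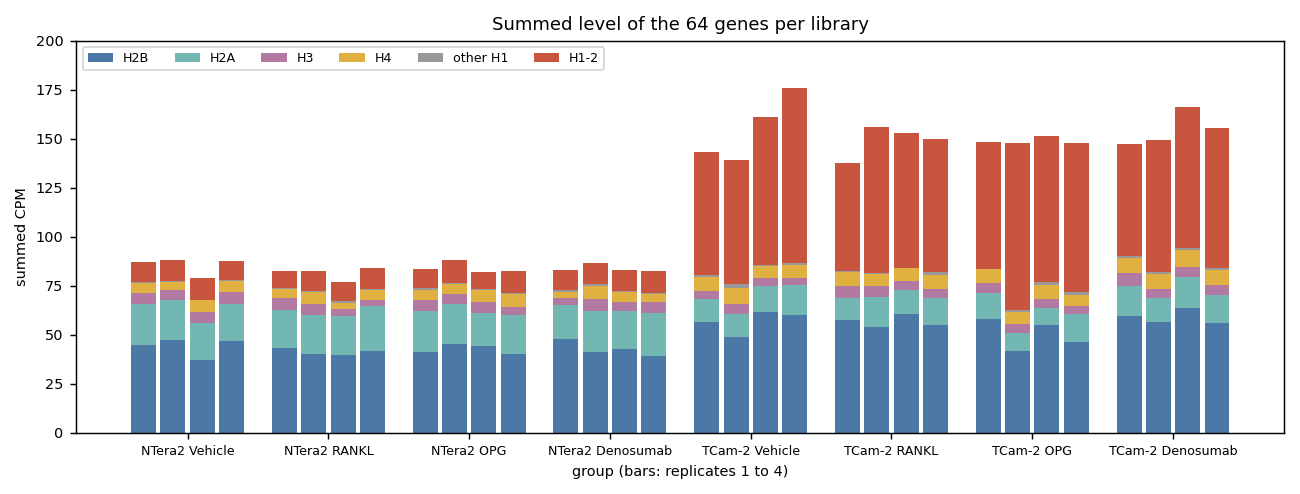
Summed level of the 64 histone genes in each of the 32 libraries, in CPM from 0, stacked by class (H2B, H2A, H3, H4, other H1 genes and H1-2). NTera2 libraries reach 76.6 to 88.1 CPM and TCam-2 libraries 137.6 to 176.0 CPM, with H1-2 making up most of the gap.

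Many of these genes stand head to head, sharing 1 stretch of DNA between their starts. There were 13 such pairs of neighbours on opposite strands with starts within 1000 bases, mostly an H2A beside an H2B gene. H2BC4 and H2AC6, whose starts lie 234 bases apart, differed between the lines in opposite directions: H2BC4 by 1.90 and H2AC6 by -0.66 on the log2 scale. H2BC8 and H2AC8, 286 bases apart, gave 0.83 and 0.05, and H2BC21 and H2AC20, 235 bases apart, gave -0.01 and 0.17, none of which passed. In H2BC12 and H2AC12 the members of a pair stood far apart in level, at 37.7 and 0.285 CPM per kilobase. H2BC15 and H2AC15, 169 bases apart, were both higher in NTera2, though H2AC15 had too few counts for a test.

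The promoters of 3 genes are shown because they carry the differences just described: H2AC6 with its opposite neighbour H2BC4, H1-2 as the gene with the highest level, and H4C8 as the leading H4 gene. Each runs from 250 bases before to 50 after the RefSeq start, 5′ to 3′ on the strand of the gene (GRCh38.p14). Capitals mark any of 4 motifs on either strand. They are the core promoter box TATAAA, the motif CCAAT that NF-Y binds, the octamer ATTTGCAT that POU2F1 binds, and GGTCCG, the core of an H4 promoter element that HINFP binds.
H2AC6, chr6:26123922-26124221, plus strand: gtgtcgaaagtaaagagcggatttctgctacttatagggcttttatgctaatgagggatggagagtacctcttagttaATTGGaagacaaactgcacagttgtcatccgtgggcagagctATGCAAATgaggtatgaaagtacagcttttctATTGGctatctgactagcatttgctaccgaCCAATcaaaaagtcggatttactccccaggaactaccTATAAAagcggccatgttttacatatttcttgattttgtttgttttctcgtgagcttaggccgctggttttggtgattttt
H1-2, chr6:26056421-26056720, minus strand: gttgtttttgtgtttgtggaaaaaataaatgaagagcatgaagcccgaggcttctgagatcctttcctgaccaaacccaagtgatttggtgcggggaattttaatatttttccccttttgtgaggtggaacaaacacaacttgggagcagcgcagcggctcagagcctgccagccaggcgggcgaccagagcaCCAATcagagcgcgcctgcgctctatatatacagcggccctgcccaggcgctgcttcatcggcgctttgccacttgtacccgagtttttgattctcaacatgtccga
H4C8, chr6:26285485-26285784, minus strand: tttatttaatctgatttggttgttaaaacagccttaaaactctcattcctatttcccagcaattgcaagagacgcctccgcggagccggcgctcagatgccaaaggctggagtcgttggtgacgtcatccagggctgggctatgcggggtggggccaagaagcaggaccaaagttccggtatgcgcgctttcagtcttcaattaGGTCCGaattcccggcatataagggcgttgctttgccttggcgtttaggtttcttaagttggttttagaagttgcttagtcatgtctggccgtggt

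The H2AC6 stretch overlaps the promoter of H2BC4 on the other strand at chr6:26123877-26124176, so both genes read the same octamer and CCAAT motifs. It holds 1 TATAAA, 3 CCAAT and 1 octamer. The H1-2 promoter holds 1 CCAAT and none of the other motifs, and that of H4C8 holds 1 GGTCCG alone. Over the 63 RefSeq promoters of 59 histone genes, the octamer stood in 42.9% against 1.77% of all 35116 promoters in the table: in 84.6% of H2A, 78.9% of H2B, 7.69% of H3 and none of H1 or H4 promoters. TATAAA stood in 66.7% against 11.5%, and CCAAT in 85.7% against 34.6%. GGTCCG stood in 91.7% of H4 promoters and in 22.2% of all histone promoters, against 11.3% of all promoters. A match is a run of letters and says nothing about binding in these cells, and head-to-head promoters share sequence.

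The same comparison of lines was available in the RANKL, OPG and denosumab libraries, which are separate libraries from the same experiments. With RANKL 10 of 17 tested histone genes passed (6 higher, 4 lower in TCam-2) against a background of 74.3% of all genes (37.5% higher, 36.9% lower). With OPG 11 of 18 passed (5 higher, 6 lower) against 76.2% (36.8% higher, 39.4% lower), and with denosumab 10 of 16 (6 higher, 4 lower) against 79.7% (39.6% higher, 40.1% lower). Of 16 genes tested in all 4 sets, 5 were higher in TCam-2 in each: H1-2 by 2.61 to 2.86 on the log2 scale, H4C8 by 0.95 to 1.36, H2BC4 by 1.35 to 2.29, H2BC12 by 0.53 to 0.84, and H3C6. In each set 3 were lower: H3C8 by -2.06 to -1.23, H3C10 by -1.54 to -0.93 and H2AC6 by -0.84 to -0.57. The libraries of the lines did not overlap in any set for H1-2, H2BC12, H4C8, H3C6, H3C8 and H2AC6. As above, H3C6 had enough counts in TCam-2 only and H3C8 in NTera2 only, which favours the direction found. The share of all genes called in all 4 sets, or without overlap, was not examined. Whether these repeats are particular to histone genes was not tested.

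Other calls held in some sets only. H2BC5 passed with vehicle and RANKL and H2BC6 in 3 sets, while H2BC21 passed with denosumab alone (0.38, adjusted p = 0.0347, edgeR). That call was lost without NTera2 denosumab replicate 2 (adjusted p = 0.0948) or TCam-2 denosumab replicates 3 (0.117) or 4 (0.0532), each left out in turn. In the RANKL set H2BC5 lost its call without NTera2 replicates 1, 2 or 3 (adjusted p = 0.0592, 0.0639 and 0.0518), and H3C10 without NTera2 replicates 1 or 2 (0.134 and 0.102) or TCam-2 replicates 1, 3 or 4 (0.0620, 0.131 and 0.0786). With denosumab H2BC5 passed without NTera2 replicate 1 (0.35, adjusted p = 0.0154, edgeR), and with RANKL H2BC8 passed without NTera2 replicates 1 or 4 or TCam-2 replicate 1 (adjusted p = 0.0153, 0.0408 and 0.0330). Some genes had enough counts for a test in some sets: H2AC13 differed by -2.42 with RANKL (adjusted p = 0.00149, edgeR) and H3C2 by -1.92 with OPG (adjusted p = 0.00698, edgeR). H2AC11 passed with OPG at -1.40 (adjusted p = 0.041, edgeR). H2AC13, H3C2 and H2AC11 had enough counts for the treatment fits of NTera2 but not for those of TCam-2. Without the low-integrity TCam-2 RANKL libraries, H2BC5, H3C8 and H3C10 no longer passed with RANKL, with adjusted p-values of 0.0679, 0.0679 and 0.0546 (edgeR), while their log2 differences were 0.42, -1.51 and -1.23 in this smaller set of libraries.

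**Figure D4:**
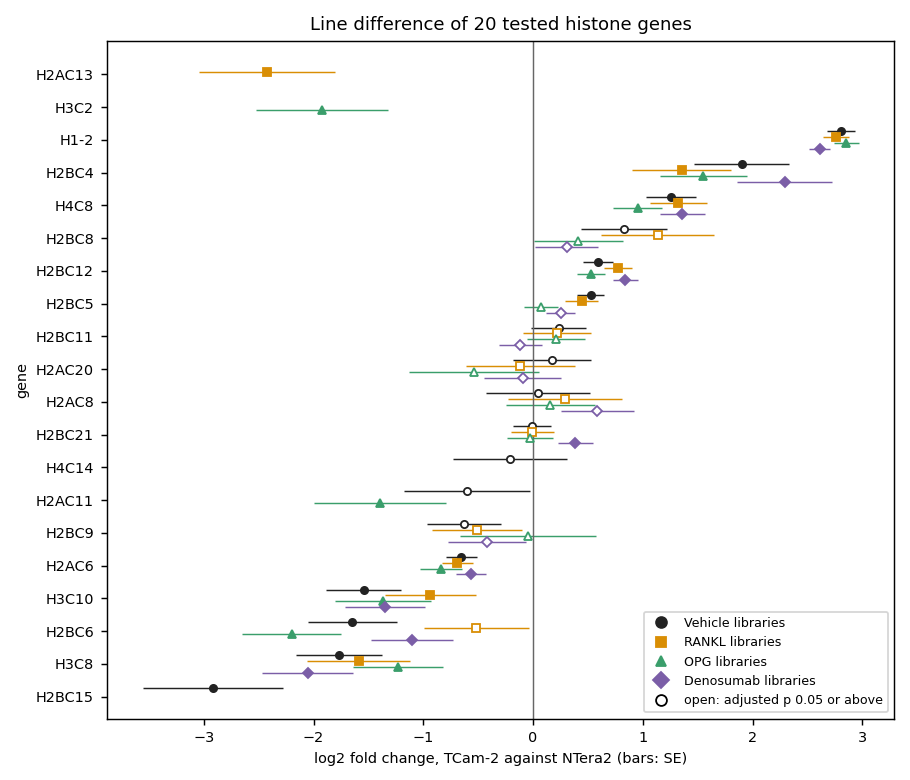
Log2 difference between TCam-2 and NTera2 with its standard error for 20 histone genes in the vehicle, RANKL, OPG and denosumab libraries; filled points passed an adjusted p of 0.05, open points did not, and H3C6 is left out because NTera2 vehicle libraries had no counts. H1-2 lies between 2.61 and 2.86 in all 4 sets and H2AC6 between -0.84 and -0.57.

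Genes that act with the replication-dependent histones also differed between the vehicle libraries, beside the background of 76.2%. Of 12 variant histones, which can also be made outside S phase, mostly from polyadenylated mRNAs, 10 passed. Of these, 8 were higher in TCam-2 (median log2 difference 0.87 over the list). MACROH2A1, which marks silent chromatin, stood at 145.6 and 423.9 CPM, and H3-3B, which encodes the replacement histone H3.3, at 386 and 758 CPM. MACROH2A2 was lower by -0.66 on the log2 scale.

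Of 23 genes for transcription and 3′ processing of histone mRNA, 14 passed, 7 higher and 7 lower in TCam-2 (median -0.09). SLBP, which binds the stem-loop, stood at 74.8 CPM in NTera2 and 55.5 in TCam-2, and NPAT, the coactivator of histone transcription, at 24.5 and 17.2. LSM10, a subunit of the U7 processing particle, stood at 69.8 and 27.0 CPM, while CCNE2, a cyclin that activates NPAT through CDK2, was higher in TCam-2 at 19.1 against 6.01 CPM. Of 8 decay genes 6 passed, 4 higher and 2 lower (median 0.30), among them UPF1, the helicase of histone mRNA decay, at 1.19 and XRN1, a 5′ exonuclease, at 1.87 on the log2 scale. Of 14 histone chaperones 12 passed, 3 higher and 9 lower (median -0.52), with NASP, an H3 and H4 chaperone, at 1009 CPM in NTera2 and 378 in TCam-2.

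S phase genes passed in 20 of 24 cases, 4 higher and 16 lower in TCam-2 (median -0.35). SLBP is a member of this list too. TK1 (1.85) and RRM2 (0.86), which make nucleotides, were higher, while MCM7 of the replicative helicase (-1.09) and PRIM1 of primase (-1.08) were lower on the log2 scale. Their summed level was 4463 to 4810 CPM over NTera2 libraries and 3973 to 4363 CPM over TCam-2 libraries. The part of these differences in the histone levels was not tested.

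RNAs that normally lack a poly(A) tail were looked at as a sign of carry-over of such RNA into the libraries. In the vehicle comparison 1 of 16 could be tested, RN7SL1, and it did not pass (0.10 on the log2 scale, adjusted p = 0.776, edgeR). Their summed level varied between groups. In NTera2 it was 6.6 to 10.5 CPM with vehicle (median 8.7), 2.5 to 13.3 with RANKL (4.9), 2.5 to 9.0 with OPG (5.0) and 3.2 to 12.5 with denosumab (8.1). In TCam-2 it was 4.6 to 15.2 CPM with vehicle (median 8.3), 1.9 to 5.4 with RANKL (2.2), 2.5 to 4.3 with OPG (3.4) and 3.3 to 4.6 with denosumab (3.5). TCam-2 vehicle libraries were thus mostly higher than treated ones in these RNAs. In NTera2 the medians with RANKL and OPG were also below that with vehicle, with overlapping ranges. The part of this in the comparisons that follow was not tested.

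The study asked what RANKL and its blockers do to these cells, and in neither line did any histone gene pass an adjusted p of 0.05 against vehicle. Nor did any other gene in these fits, which do not pair libraries by experiment (0.0% of 17351 genes in NTera2 and of 16621 in TCam-2). Each fit is therefore described by its values and unadjusted p-values. The treatments of a line share their 4 vehicle libraries. DESeq2 called no histone gene either. Among the 12 most abundant histone genes, the log2 differences ran from -0.58 to 0.58 with RANKL, -0.82 to 0.22 with OPG and -0.52 to 0.37 with denosumab in NTera2. In TCam-2 they ran from -0.35 to 0.61, -0.49 to 0.29 and -0.33 to 0.31, with standard errors of 0.106 to 0.624 over both lines. The less abundant genes had fewer counts, and the size of change that could be detected in them was not tested.

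H1-2, the best measured gene, gave narrow limits. In NTera2 its log2 difference from vehicle was -0.07 with RANKL (SE 0.12), -0.01 with OPG and 0.05 with denosumab. In TCam-2 it was -0.16 with RANKL (SE 0.11), 0.03 with OPG and -0.15 with denosumab. TCam-2 libraries measured 55.2, 74.4, 68.5 and 68.0 CPM with RANKL, 64.6, 85.2, 74.7 and 76.2 with OPG and 57.3, 67.4, 71.7 and 71.1 with denosumab, all within or near the vehicle range of 62.7 to 89.6 CPM.

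In NTera2 with RANKL, 1 of 21 tested histone genes had an unadjusted p under 0.05, against 10.3% of all genes. It was H2BC6, at 1.04, 1.20, 1.68 and 0.685 CPM against 2.01, 2.16, 1.11 and 2.05 with vehicle. The groups overlapped, and the log2 difference of -0.67 (SE 0.31) did not pass adjustment (adjusted p = 0.464, edgeR). H4C14 (-0.89, SE 0.56) and H2AC8 (-0.58, SE 0.41) came next. The median over the 21 genes was -0.14, with 6 above 0, and the summed level was below vehicle in all 4 experiments, at a mean of 81.5 ± 3.29 against 85.4 ± 4.29 CPM (SD, n = 4). That difference was smaller than the SD of the vehicle group.

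With OPG, NTera2 had H2BC9 as its 1 histone gene of 21 under 0.05, against 1.68% of all genes. It measured 0.749, 0.890, 0.986 and 1.14 CPM against 1.41, 2.29, 1.82 and 1.23 with vehicle, lower in all 4 experiments and without overlap. The log2 difference was -0.82 (SE 0.33, adjusted p = 1.00, edgeR). H3C8 (-0.41, SE 0.31) and H2AC8 (-0.53, SE 0.41) came next, and the median over the 21 genes was 0.01. With denosumab no histone gene reached an unadjusted p of 0.05, against 7.25% of all genes. H2BC9 (-0.52, SE 0.33), H2BC11 (0.32, SE 0.23) and H3C2 (-0.77, SE 0.59) had the smallest p-values, and the median was -0.07.

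In TCam-2 with OPG, H2BC5 gave the smallest unadjusted p of any histone gene in a comparison with vehicle. It measured 14.1, 9.44, 12.9 and 11.1 CPM with OPG against 16.9, 15.5, 15.3 and 18 with vehicle, lower in all 4 experiments and without overlap. It measured 14.8, 15.8, 14.6 and 14.4 CPM with RANKL and 16.2, 14.9, 13.0 and 13.6 with denosumab, both overlapping the vehicle range. Compared within experiments, it was below vehicle in all 4 with denosumab too, and above it in 1 of 4 with RANKL. The log2 difference with OPG was -0.49 (SE 0.13) and did not pass adjustment over all genes (adjusted p = 0.471, edgeR). It was the only one of 15 histone genes under 0.05, against 8.68% of all genes. H2AC20 (-0.84, SE 0.59) and H2BC8 (-0.42, SE 0.39) came next, and the median was -0.13 with 4 of 15 above 0.

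With RANKL and with denosumab none of the 15 histone genes tested in TCam-2 had an unadjusted p under 0.05, against 8.92% and 6.56% of all genes. The smallest p-values with RANKL belonged to H1-2, H2BC5 (-0.17, SE 0.13) and H3C6 (0.35, SE 0.26). With denosumab they belonged to H3C6 (0.49, SE 0.27), H2BC21 (0.31, SE 0.18) and H2BC5 (-0.22, SE 0.13). Medians over the 15 genes were -0.01 and 0.15. Summed levels with RANKL, OPG and denosumab were 149.0 ± 7.99, 148.8 ± 1.84 and 154.5 ± 8.32 CPM against 154.8 ± 17.1 CPM with vehicle (SD, n = 4), differences smaller than the vehicle spread.

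**Figure D5:**
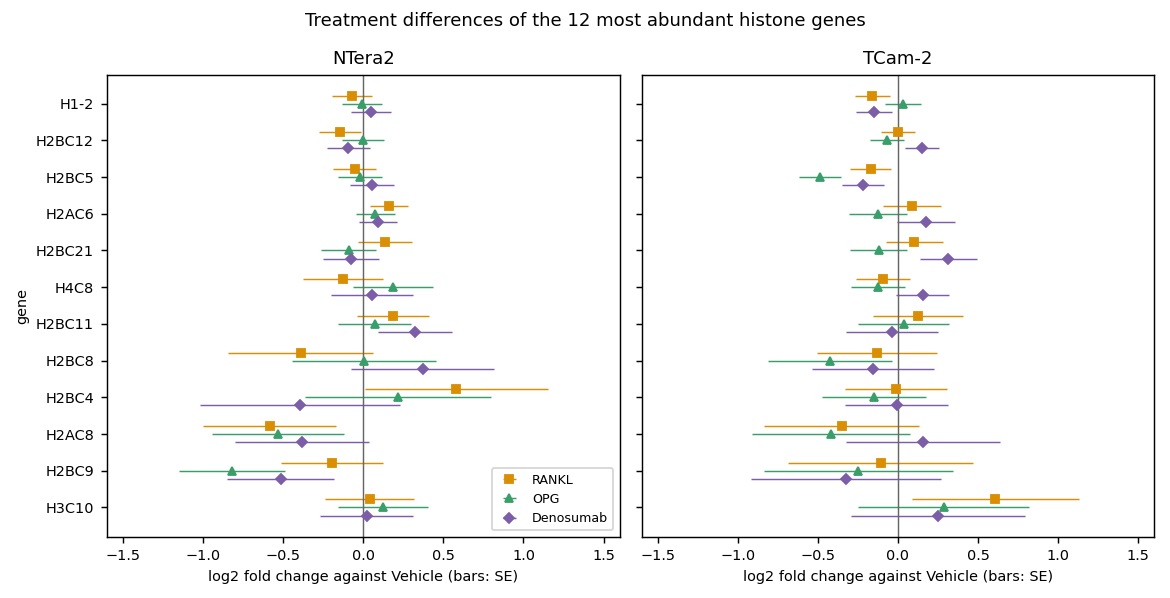
Log2 difference from vehicle with its standard error for the 12 most abundant histone genes with RANKL, OPG and denosumab, in NTera2 and TCam-2. No point passed an adjusted p of 0.05; the values run from -0.82 to 0.61, with H2BC9 with OPG in NTera2 the lowest.

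The blockers were also compared directly with RANKL. In NTera2 H2BC6 was higher with OPG than with RANKL by 0.68 on the log2 scale (SE 0.31, adjusted p = 0.913, edgeR), the only one of 21 histone genes under 0.05, against 5.01% of all genes. H4C14 (1.04, SE 0.55) and H2BC9 (-0.62, SE 0.33) followed. In TCam-2 H2BC5 was lower with OPG than with RANKL by -0.32 (SE 0.13, adjusted p = 0.887, edgeR), the only one of 15, against 5.14%, followed by H1-2 (0.19, SE 0.11) and H2BC6 (-0.96, SE 0.60). Denosumab against RANKL gave none in either line, against 4.36% in NTera2 and 0.933% in TCam-2. The smallest p-values were those of H2BC6 (0.56, SE 0.32), H2BC8 (0.76, SE 0.45) and H3C8 (0.51, SE 0.31) in NTera2 and of H4C8 (0.25, SE 0.17), H2BC12 (0.15, SE 0.10) and H2BC21 (0.21, SE 0.17) in TCam-2. No adjusted p passed for any gene.

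Whether the lines responded differently was tested as an interaction over all 32 libraries, with 23 histone genes tested. None passed, and no other gene did. For RANKL 1 histone gene had an unadjusted p under 0.05 (H2AC15, adjusted p = 0.903, edgeR) against 5.22% of all genes. Its means were 0.551 and 0.250 CPM in NTera2 with vehicle and RANKL, and 0 and 0.149 CPM in TCam-2. No 52-base window of its GENCODE transcript, which ends with the coding sequence, was unique. H2BC6 and H3C10 came next. For OPG there were 2, H2BC5 (-0.44) and H4C14 (-2.19), both with an adjusted p of 0.953 by edgeR, against 5.2%, with H3C6 next. For denosumab there were none, against 4.78%, with H2BC21 (0.43), H2BC12 (0.28) and H2BC5 (-0.24) in front.

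The 4 experiments of a line, each at its own passage, gave another source of spread. With treatment in the model, no histone gene of 21 differed between NTera2 experiments, against 8.28% of all genes; H2AC8 (adjusted p = 0.380), H2BC11, H2AC11 and H2AC6 had the smallest p-values by edgeR. In TCam-2 none of 15 passed, against 1.77%. H1-2 came nearest (adjusted p = 0.0609, edgeR), with means of 59.9 ± 4.44 CPM at passage 118, 72.6 ± 9.55 at passage 120, 72.6 ± 3.24 at passage 121 and 76.2 ± 9.53 at passage 122 (SD, n = 4 treatments). It passed with no filter on low counts (adjusted p = 0.0167), with DESeq2 (0.00589) and without the vehicle libraries (0.0409), and not in the remaining fits (0.0614 to 0.397). H2BC11 (adjusted p = 0.290), H2BC4 (0.375) and H2AC20 (0.435) followed.

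The low-integrity libraries were close to the others in summed level. TCam-2 RANKL replicates 1 to 4 summed to 137.6, 155.8, 152.7 and 149.8 CPM, and without H1-2 to 82.4, 81.4, 84.2 and 81.7 CPM, where replicates 2 and 4 are the libraries with integrity numbers of 6.1 and 3.7. Without those 2 the mean was 145.1 CPM. H2BC11 did stand apart, at 2.32 and 2.72 CPM in replicates 2 and 4 against 6.19 and 5.46 in replicates 1 and 3, and its difference between the lines with RANKL was 0.21 with them and 0.69 without (adjusted p = 0.0519, edgeR). Without them the RANKL comparison of lines called 11 of 23 tested histone genes (5 higher, 6 lower in TCam-2). Over all genes it called 12199 of 18197, a larger share. RANKL against vehicle in TCam-2 then called 0 of 17 histone genes and 0 of all 17232 genes. The log2 difference of H1-2 from vehicle was then -0.27 (adjusted p = 0.356, edgeR), that of H2BC5 -0.19 and that of H3C6 0.57.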

How the data were processed

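Poly(A)-selected RNA (TruSeq Stranded mRNA, 52-base paired reads on an Illumina NovaSeq, per the labels' protocols) was sequenced in 32 libraries. The authors deposited whole-number read counts per gene, with gene symbol, name, coordinates and length. Per the submitters' processing notes the tools were bcl2fastq 2.20.0, STAR 2.7.9a and featureCounts 1.6.2 with GRCh38. The annotation release, the strand setting and the treatment of reads that match several genes are not given in the sources used here. Every column matched 1 sample (0 unmatched), and no pair of replicates agreed within counting error (chi-square per degree of freedom 2.70 to 19.6).

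From these counts, edgeR 4.0.16 in R 4.3.3 was run with its default filter on low counts, TMM factors and the robust quasi-likelihood test, adjusted by Benjamini-Hochberg over all genes tested. A call is an adjusted p below 0.05, and standard errors follow from the F statistic. The comparison of lines used the 8 libraries of 1 treatment, treatment comparisons the 16 libraries of 1 line, and interactions all 32. A gene failing the filter was not tested. In the comparison of lines a low gene could pass the filter through 1 line alone, which favours a call towards that line. The fits of the vehicle line comparison, the NTera2 treatments and the NTera2 experiments were run on simulated counts. Changes were planted there only in genes with higher counts, so recovery in genes with few counts was not tested. CPM were scaled over all 32 libraries. Alternatives were DESeq2 1.42.0, RLE factors, no filter, a replicate block, each replicate left out and the low-integrity libraries left out.

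Genes named are the 12 most abundant histone genes in the vehicle libraries with the top gene of each class, the 5 largest differences in each direction between the lines, the 3 smallest p-values in each treatment comparison, the 4 smallest between experiments, and up to 4 per related list. Some others were chosen after their values were seen: H3C2, H3C3, H2AC13, H2AC15, H2BC13 and the lesser H1 genes. The histone genes and the related lists were chosen with earlier results of these data known.

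Replicate numbers mark a shared passage within a line, per the labels. Same-numbered libraries deviated together, with median correlations of 0.326, 0.311, 0.0665 and 0.147 for NTera2 numbers 1 to 4 and 0.291, 0.0515, 0.158 and 0.0762 for TCam-2, while medians with other numbers were negative. Between lines the numbers pair nothing. Replicates are 4 independent experiments of 1 line each, so p-values measure the spread between cultures of these lines. The treatment fits did not pair libraries by experiment, so the spread between experiments stayed in their error. Pairing entered only as the replicate block among the alternatives. Sequences come from GENCODE v29 and RefSeq.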

Additional observations from a re-analysis of the deposited data

Results flagged for a closer look

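In each group of 4 libraries, the 16 histone genes shown by library and the summed level were examined for a library set apart from the other 3, by a gap larger than Dixon's 95% critical value for 4 values. Of 136 groups 10 had one, and chance gives about 1 in 20.

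In NTera2, H2BC12 stood at 16.5 CPM in denosumab replicate 1 against 12.8 to 13.1 in the others. H2BC5 stood at 14.1 CPM in RANKL replicate 4 against 9.76 to 10.1. H4C8 was low in denosumab replicate 4, at 1.77 CPM against 2.58 to 2.63. H2BC6 was low in vehicle replicate 3, at 1.11 CPM against 2.01 to 2.16, which bears on its comparison with RANKL. H3C6 had 1 count in RANKL replicate 3 (0.062 CPM) and 1 in denosumab replicate 4 (0.066 CPM), with none in the other libraries of those groups. In TCam-2, H3C10 was high in denosumab replicate 2, at 1.71 CPM against 0.491 to 0.685.

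The summed level of the 64 genes was low in NTera2 vehicle replicate 3, at 79.0 CPM against 87.1 to 88.1. It was high in NTera2 denosumab replicate 2, at 86.7 CPM against 82.3 to 83.0, and in TCam-2 OPG replicate 3, at 151.5 CPM against 147.6 to 148.3. The last differed little from its neighbours, which lay close together.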

How the results depend on the processing

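The number of histone genes called between the lines stayed within 1.5 times its main value under every alternative except no filter on low counts, which gave 21 with vehicle (6 higher, 15 lower in TCam-2) and 18 with OPG (6 higher, 12 lower), because more genes were tested. Leaving out 1 replicate gave 11 to 12 calls with vehicle, 8 to 11 with RANKL, 10 to 15 with OPG and 9 to 12 with denosumab. The replicate block gave 11, 9, 10 and 10 calls in these sets. Between lines it ties libraries by a number that pairs nothing, so it is no check on these comparisons. In every comparison of treatments, blockers and interactions, 0 histone genes were called in every setting run, the replicate block included. Between TCam-2 experiments 1 gene, H1-2, was called without the filter, 1 with DESeq2, and 0 to 1 when a treatment was left out.

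The summed level moved by more than its spread when library totals were used without factors, to 90.5, 87.2, 90.1 and 89.5 CPM in NTera2 (vehicle, RANKL, OPG and denosumab) and to 139.1, 138.0 and 144.6 CPM in TCam-2 with RANKL, OPG and denosumab. Without H1-2 it was 75, 71.6, 73.7 and 73.1 CPM in NTera2 and 81.9, 82.5, 73.6 and 87.6 CPM in TCam-2.

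No called gene changed direction in the comparisons of lines. Genes that were not called, with differences near 0, did, and the cause was not tested. H2AC8 with vehicle gave -0.012 without the filter, -0.020 with DESeq2, -0.037 with the replicate block and -0.37 to 0.31 with 1 replicate left out. With RANKL it gave -0.72 without the low-integrity libraries and -0.027 to 0.62 with 1 replicate left out, and with OPG -0.12 to 0.32. H2BC21 with RANKL gave 0.014 with the replicate block, 0.018 without the low-integrity libraries and -0.18 to 0.041 with 1 replicate left out, and -0.11 to 0.068 with vehicle and -0.20 to 0.053 with OPG. H2BC11 with RANKL ranged from -0.016 to 0.42, H2BC5 with OPG from -0.027 to 0.16 and H2BC9 with OPG from -0.72 to 0.44. H3C10 with RANKL lost its call without the filter (adjusted p = 0.0536, edgeR). With the replicate block, whose pairing of the lines is arbitrary, its adjusted p was 0.0773 (edgeR). A level of 1 CPM stands for near 10 to 30 counts a library, and how far depth limits genes below it was not tested.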
